A study of Mus musculus with 2 samples.

Results

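Far intergenic RUNX2 regions are the shared CUT&Tag regions that lay more than 50 kb from the nearest end of any protein-coding gene. They numbered 2037 of the 17836 regions found in both replicates on chromosomes 1 to 19 (11.4%, 95% Wilson interval 11.0 to 11.9). Members were chosen by position among the shared regions. Peaks that touched in at least 1 bp across the 2 lists were joined, a region holding peaks of both lists was kept as shared, and its position was the midpoint of its widest replicate 1 peak. That position had to lie outside every protein-coding gene, over 1 kb from the end of any annotated gene and over 50 kb from the nearest protein-coding gene end, by RefSeq gene spans on GRCm38. The nearest member to the limit lay 50060 bp from Dph5, and the nearest region left out lay 49871 bp from Tktl2. The span of 50 to 55 kb held 131 members, and 137 intergenic regions lay between 45 and 50 kb.

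The libraries are RUNX2 CUT&Tag of untreated MC3T3-E1 cells, a mouse line of osteoblast precursors, with 2 replicates of 1 group. No control library and no second condition were used here. The labels name no alteration of the cells. MC3T3-E1 is a clonal line, and separate cultures are not named in the labels, so the spread between them may be technical. Each replicate came as a list of peak positions and widths without height, and the lists held 26853 and 27287 peaks. Read depth is unknown, and an expression marker check of the cells could not be made from peaks. A width is the length of the called peak and not a measure of how much protein was bound.

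RUNX2 is the Runt-family factor that osteoblasts need in order to form, and it binds DNA with its partner CBFB at sites with the core TGTGGT or TGCGGT. Many developmental genes are flanked by gene deserts, long stretches without protein-coding genes, in which enhancers act on a promoter far away. In CUT&Tag an antibody brings the transposase Tn5 to the protein's sites, and Tn5 also cuts accessible chromatin on its own, a background that a library without the specific antibody would measure.

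Sequence was used here for 4 far intergenic regions that overlapped a promoter window of the RefSeq table (GRCm38.p6). Overlaps were not taken from every chromosome, so the 4 need not be all such regions. Each window runs from 250 bases before to 50 bases after a transcript start, here of long noncoding RNA (lncRNA) genes, at starts inside the gene span. Of the 4, the windows of Gm35551 and Gm13816 overlapped the peaks of both replicates and are printed below, 5′ to 3′ on the gene's strand, with every match to the RUNX core in capitals. The cores searched were TGTGGT and TGCGGT with their reverse complements ACCACA and ACCGCA, of which neighbouring matches can share at most 1 base. The Gm35551 window (chr17:84044537-84044836, minus strand) lay wholly inside both peaks, with widths of 429 bp (replicate 1) and 408 bp (replicate 2). It lay 139.2 kb from Zfp36l2, which encodes an RNA-binding protein that speeds mRNA decay. The Gm13816 window (chr2:92751232-92751531, plus strand) had 198 of its 300 bases in both peaks, which were 562 and 210 bp wide. It lay 136.0 kb from Chst1.
Gm35551: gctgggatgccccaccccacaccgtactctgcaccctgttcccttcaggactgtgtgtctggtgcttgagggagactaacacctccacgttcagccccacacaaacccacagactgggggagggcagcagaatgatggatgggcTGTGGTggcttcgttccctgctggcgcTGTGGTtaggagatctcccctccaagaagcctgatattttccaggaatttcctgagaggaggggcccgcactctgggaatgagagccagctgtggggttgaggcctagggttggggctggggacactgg
Gm13816: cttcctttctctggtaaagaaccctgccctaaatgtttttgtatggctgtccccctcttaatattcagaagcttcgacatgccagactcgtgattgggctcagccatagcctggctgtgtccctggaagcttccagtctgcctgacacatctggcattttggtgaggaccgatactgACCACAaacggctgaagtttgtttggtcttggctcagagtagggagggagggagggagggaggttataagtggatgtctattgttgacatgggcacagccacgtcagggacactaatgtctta

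The Gm35551 window held the RUNX core in 2 places, both as TGTGGT, and the Gm13816 window held it in 1, as ACCACA on the printed strand. Among all 32851 windows of the table, each of 300 bases, 22.4% held at least 1 match. The other two windows, of Gm12153 and Gm34589, had no base in common to both peaks. The Gm12153 window held 1 match, outside its region, and the Gm34589 window held 0. A match is a description of letters, and 4 windows say nothing about the other members, whose sequence was not used here.

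Far intergenic regions were sparse for the length of DNA they could occupy. The stretches of chromosomes 1 to 19 that meet the far rule added up to 849 Mb, 34.8% of the span from the first to the last gene or peak, and held 2.40 shared regions per Mb. Intergenic stretches from 1 to 50 kb away held 6.27 per Mb, the insides of protein-coding genes 6.25, and the 1 kb around annotated gene ends 44.1. Counting every peak of each list by its own midpoint, whether shared or not, replicate 1 had 3392 far peaks and replicate 2 had 3480. That gave 4.05 ± 0.07 peaks per Mb of far span (SD, n = 2), against 10.1 ± 0.10 for intergenic stretches nearer to genes, 10.2 ± 0.20 inside genes and 54.9 ± 0.14 at gene ends. The gap between the far span and each other class was many times the spread between replicates, while nearer intergenic stretches and the insides of genes differed by about that spread. Spans include stretches where reads cannot be mapped, so densities per mappable Mb would be higher.

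Within the far span the density went on falling with distance. It was 4.73 shared regions per Mb at 50 to 75 kb from the nearest protein-coding gene end, 4.26 at 75 to 100 kb and 3.49 at 100 to 200 kb. Beyond that it was 1.80 at 200 to 500 kb, 0.60 at 500 to 1000 kb and 0.17 past 1000 kb, where 77.3 Mb of span held 13 regions. The span includes stretches before the first protein-coding gene of a chromosome. That before Hnf4g on chromosome 3 had 3436 kb of far span and 0 peaks in both lists. Whether stretches where reads cannot be mapped add to the fall with distance was not tested. The median member lay 124999 bp away (quartiles 76734 and 213248 bp), 564 lay over 200 kb away, and 99 lay over 500 kb away. All peaks of each list, shared or not, also grew sparser from each class to the next, as the plot of density by distance shows. The share of them found in both replicates went from 64.1% (60.6 to 67.4) at 50 to 75 kb to 36.1% (22.5 to 52.4, 36 peaks) past 1000 kb in replicate 1. In replicate 2 it went from 60.1% (56.7 to 63.4) to 43.3% (27.4 to 60.8, 30 peaks). There the fall was not steady, and the highest share was 62.6% (59.7 to 65.5) at 100 to 200 kb.

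**Figure D1:**
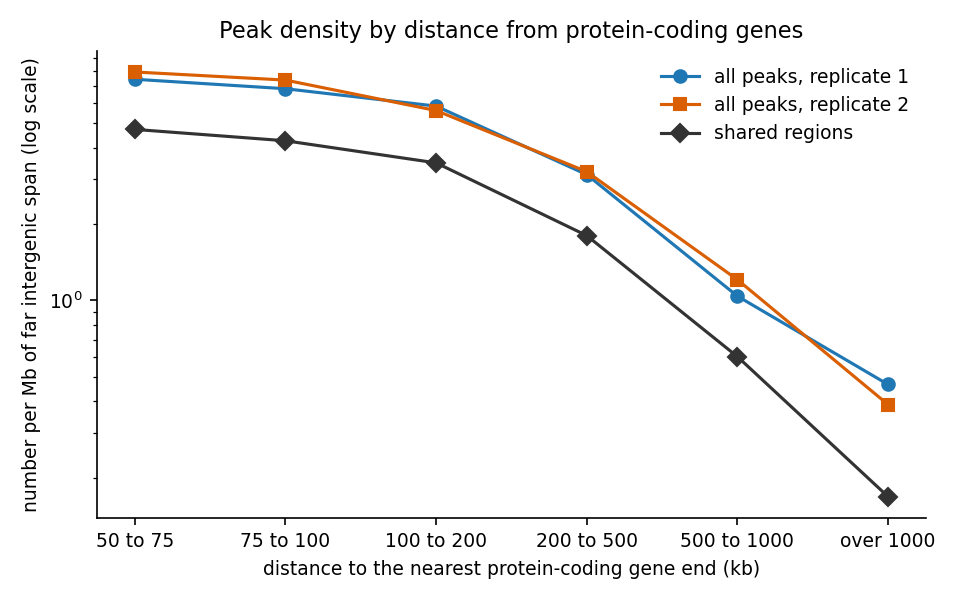
Number of far intergenic peaks or shared regions per Mb of far span (vertical axis, log scale) by distance to the nearest protein-coding gene end in kb (horizontal axis), for all peaks of replicate 1 (circles), all peaks of replicate 2 (squares) and shared regions (diamonds). Shared regions go from 4.73 per Mb in the nearest class to 0.17 per Mb past 1000 kb.

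The 5 members farthest from any protein-coding gene lay in 4 deserts. A region 1388 kb from Nmbr, which encodes a bombesin-type peptide receptor, had widths of 218 bp (replicate 1) and 435 bp (replicate 2). In the same desert a region 1224 kb from Cited2, which encodes a transcriptional coregulator, was 601 and 328 bp wide. One lay 1374 kb from Zeb2, which encodes a transcriptional repressor that promotes epithelial-mesenchymal transition (474 and 386 bp). Another lay 1353 kb from the kinase gene Map3k7, on the side of Epha7 (482 and 710 bp). The last lay 1316 kb from the glypican gene Gpc5 (503 and 514 bp). None of these 5 was among the widest members.

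Members were as wide as other regions away from gene ends. Median peak width was 464 bp in replicate 1 (range 163 to 1663) and 477 bp in replicate 2 (160 to 1700), against 469 and 464 bp for nearer intergenic regions and 536.5 and 544 bp at gene ends. A region was counted as wide when its peaks exceeded the list median, 395 bp, in both replicates, as did 51.7% of all shared regions. Of the members, 939 (46.1%, 43.9 to 48.3) were wide, against 52.4% of all other shared regions, a difference of -6.29 percentage points (Newcombe interval -8.58 to -3.98, two-sided Fisher's exact test, p = 2.0e-07 adjusted over 4 comparisons). Where shared peaks had to overlap by 50% of both, it was -3.75 points (exact p = 0.0058). Against 59.6% (58.5 to 60.8) at gene ends the difference was -13.5 points (-16.0 to -11.1, adjusted p = 2.2e-26, exact test). The difference from nearer intergenic regions was -1.05 points (-3.81 to 1.72, exact test, adjusted p = 0.605), and that from regions inside genes was -0.69 points (-3.21 to 1.83, with an equal adjusted p). Neither passed the threshold of 0.05, and the first interval still holds differences down to -3.81 points. These tests describe the regions of 2 lists, since regions are not replicates of a condition.

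Far peaks were found in both replicates less often than other peaks. Of the replicate 1 far peaks, 2055 of 3392 (60.6%, 58.9 to 62.2) overlapped a replicate 2 peak, beside 68.4% for all replicate 1 peaks. For replicate 2 the count was 2060 of 3480 (59.2%, 57.6 to 60.8), beside 67.3% for all its peaks. Against all other peaks the difference was -9.02 percentage points in replicate 1 (Newcombe interval -10.8 to -7.28) and -9.33 in replicate 2 (-11.1 to -7.60), with Fisher's exact p of 2.0e-24 and 5.3e-26 adjusted over 12 comparisons. In each list the peaks were also split into 5 width classes of about equal size. Far peaks were below other peaks in all 10 of these comparisons, and 9 passed the threshold (adjusted p of the exact test from 1.3e-07 to 0.0199). The other peaks include those at gene ends, and no split by width was made against the remaining classes alone. An overlap joins a peak of each list, so the comparisons in the 2 lists are not independent. The exception was the widest class of replicate 2, at 95.6% against 96.5% (adjusted p = 0.284, exact test). Of the other classes, peaks at gene ends had the highest shares, 81.5% in replicate 1 and 81.2% in replicate 2. Compared with nearer intergenic peaks only, a comparison chosen after the data were seen, far peaks differed by -2.30 points in replicate 1 (exact p = 0.0326) and by -2.81 in replicate 2 (exact p = 0.0088). Compared with peaks inside genes they differed by -1.99 (exact p = 0.0428) and -1.69 points (-3.60 to 0.20, exact p = 0.0817), and the last did not pass. These 4 p-values are not adjusted.

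**Figure D2:**
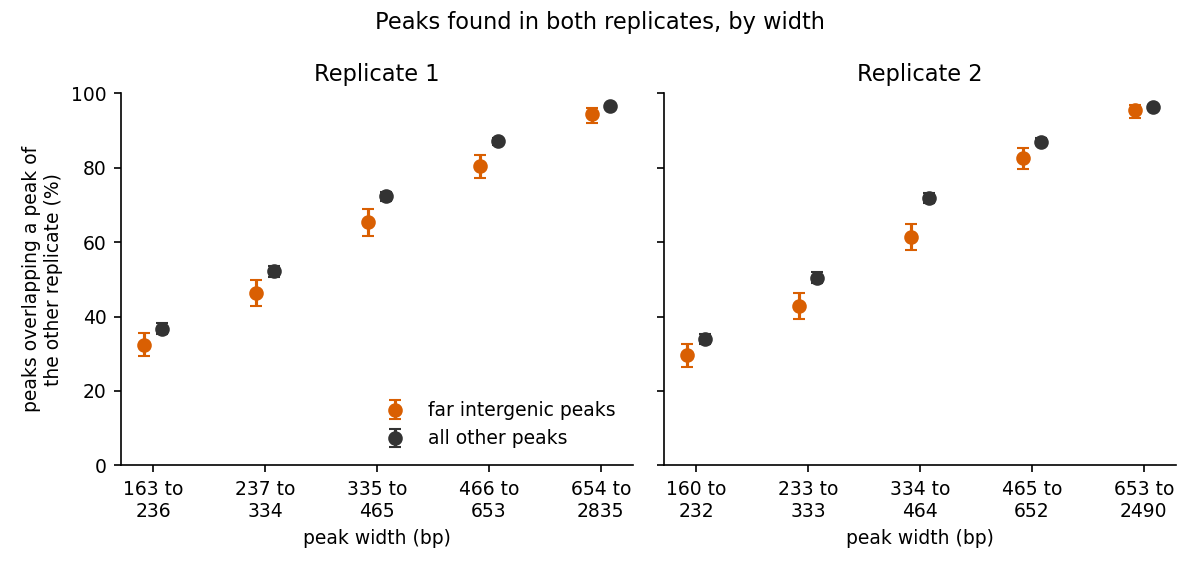
Percentage of peaks overlapping a peak of the other replicate (vertical axis) by class of peak width in bp (horizontal axis), for far intergenic peaks and all other peaks, with each list in its own panel and bars showing 95% Wilson intervals. In replicate 1 the far share goes from 32.5% in the narrowest class to 94.4% in the widest, and the far point lies below the other point in every class of both panels.

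The 12 widest members by mean rank of width over both replicates measured at least 1239 bp in replicate 1 and 1177 bp in replicate 2. The first lay between Irf2bp2 and Tomm20 (chromosome 8, 126832319 to 126834076), 97.4 kb from Tomm20 and inside the lncRNA gene Gm31718, with widths of 1663 bp (replicate 1) and 1675 bp (replicate 2). The second lay 114.8 kb from the reductase gene Msrb3 and 189.9 kb from Hmga2, which encodes an architectural chromatin protein of growing mesenchyme (chromosome 10, 120665408 to 120667095, 1523 and 1494 bp). The third lay inside the lncRNA gene Lncpint between Klf14 and Mkln1 (chromosome 6, 31125466 to 31126910) and was 1445 bp wide in both. The fourth and the twelfth lay on the 2 sides of the endosome gene Eea1, 192.3 kb away towards Btg1 (1480 and 1397 bp) and 159.9 kb away towards Nudt4 (1589 and 1177 bp).

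Of the remaining 7, one lay 157.5 kb from Eya1, a transcription cofactor gene of ear, kidney and muscle (1448 and 1327 bp), with Xkr9 on the other side. Another lay 109.7 kb from Ercc6l2 and 127.9 kb from Ptch1, the hedgehog receptor gene (1374 and 1377 bp). Between Cep162 and Tbx18, a T-box gene of mesenchyme, a region 238.5 kb from Tbx18 measured 1314 and 1331 bp. A region 78.9 kb from the endothelial cadherin gene Cdh5, in the desert that begins at the osteoblast cadherin gene Cdh11, measured 1299 and 1357 bp. One 349.3 kb from Pdgfc, which encodes a platelet-derived growth factor, measured 1396 and 1240 bp, with Ctso on its far side. The last 2 lay 64.1 kb from the taurine transporter gene Slc6a6, with Lsm3 opposite (1472 and 1359 bp), and 99.7 kb from Rai14, with C1qtnf3 opposite (1239 and 1441 bp).

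Widths in the 2 lists went together only loosely. Over the 2037 members, width in replicate 1 and in replicate 2 had a Pearson r of 0.59 and a Spearman rho of 0.52, given as a description across regions of the same 2 libraries. For all other shared regions the values were 0.63 and 0.57. The 2 widths were within a factor of 1.5 for 1251 members (61.4%), 957 members were wider in replicate 1 and 1076 in replicate 2, and 4 were equal. Midpoints of the 2 peaks lay a median of 90 bp apart. At least 1 kb was reached by 100 members in replicate 1, by 110 in replicate 2 and by 51 in both.

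**Figure D3:**
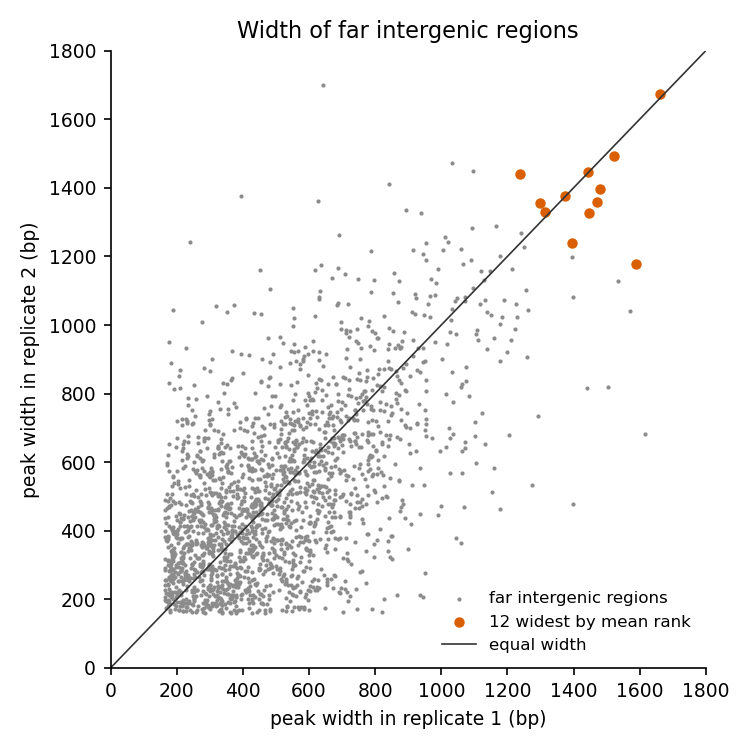
Peak width in bp in replicate 1 (horizontal axis) against replicate 2 (vertical axis) for each far intergenic region (grey points), with the 12 widest by mean rank marked and a line of equal width. Points scatter widely around the line (Spearman rho 0.52), and the 12 marked regions lie between 1239 and 1663 bp in replicate 1.

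Members gathered in a small part of the deserts. The far span was divided among 2506 intervals between neighbouring protein-coding genes or beyond the outermost one of a chromosome. Of these, 749 (29.9%) held at least 1 member. The 126 intervals with 5 or more members held 907 members (44.5%) in 9.64% of the far span, a figure that follows in part from picking them by their counts. Counting in the list that did not pick them avoids this. Intervals with 5 or more far peaks in replicate 1 held 55.7% of the far peaks of replicate 2 in 17.2% of the far span, or 13.3 replicate 2 peaks per Mb. Picked in replicate 2, they held 56.7% of the far peaks of replicate 1 in 17.3% of the span, or 13.1 per Mb. Intervals without any far peak in replicate 1 held 0.61 replicate 2 peaks per Mb, and those without any in replicate 2 held 0.47 replicate 1 peaks per Mb. Deserts rich or empty in one list were thus rich or nearly empty in the other. Both lists share the same unmappable stretches.

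The desert between Klf4 and Actl7b on chromosome 4 held the most members, 24 in 1081 kb of far span. Klf4 encodes a Krüppel-like factor of early response and stemness, and Actl7b an actin-like protein of the testis. Replicate 1 had 38 far peaks there and replicate 2 had 35, and 17 members were nearer to Actl7b. The widest lay at 56373695 to 56374916, 841.8 kb from Klf4 and 365.7 kb from Actl7b, and measured 1222 and 987 bp. The 7 nearest to Klf4, all upstream of it and 118.9 to 318.6 kb away, were narrower, from 167 to 557 bp in replicate 1 and from 225 to 652 bp in replicate 2.

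The desert between Myc and Gsdmc on chromosome 15 held 18 members in 1640 kb of far span, with 31 far peaks in replicate 1 and 32 in replicate 2. Myc encodes the growth-promoting transcription factor, and the neighbouring lncRNA gene Pvt1 held 4 of the members. The widest, at 62328174 to 62329265, measured 1071 and 1081 bp. With the other side of the gene included, Myc was the nearest coding gene to 15 members, from 59.0 to 708.3 kb away. Cited2 ended a desert of 2952 kb on chromosome 10 that begins at Nmbr, with 16 members, of which 14 were nearer to Cited2. Replicate 1 had 30 far peaks there and replicate 2 had 27, and over 2798 kb of far span its density was 5.72 members per Mb, against 22.2 in the Klf4 desert.

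Between Rasgrp1 and Thbs1 on chromosome 2 lay 16 members in 644 kb of far span, 24.8 per Mb, with 24 far peaks in replicate 1 and 22 in replicate 2. Rasgrp1 encodes a Ras activator of lymphocytes, and Thbs1 the matrix protein thrombospondin 1, a gene that YAP and TGF-beta turn on. Of these members 9 were nearer to Thbs1, from 126.1 to 380.5 kb away, and 9 lay inside lncRNA genes, among them Gm13986 with 6. Between Cxcl12 and Zfp637 on chromosome 6 lay 13 members in 541 kb, 24.0 per Mb, with 16 and 15 far peaks. Cxcl12 encodes the chemokine by which bone marrow stroma holds blood stem cells, and 11 members were nearer to it, at 86.8 to 284.5 kb. The widest by mean rank, 250.2 kb away (117431085 to 117432235), measured 857 bp in replicate 1 and 1151 bp in replicate 2, and the one 284.5 kb away differed more, at 393 and 1375 bp.

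**Figure D4:**
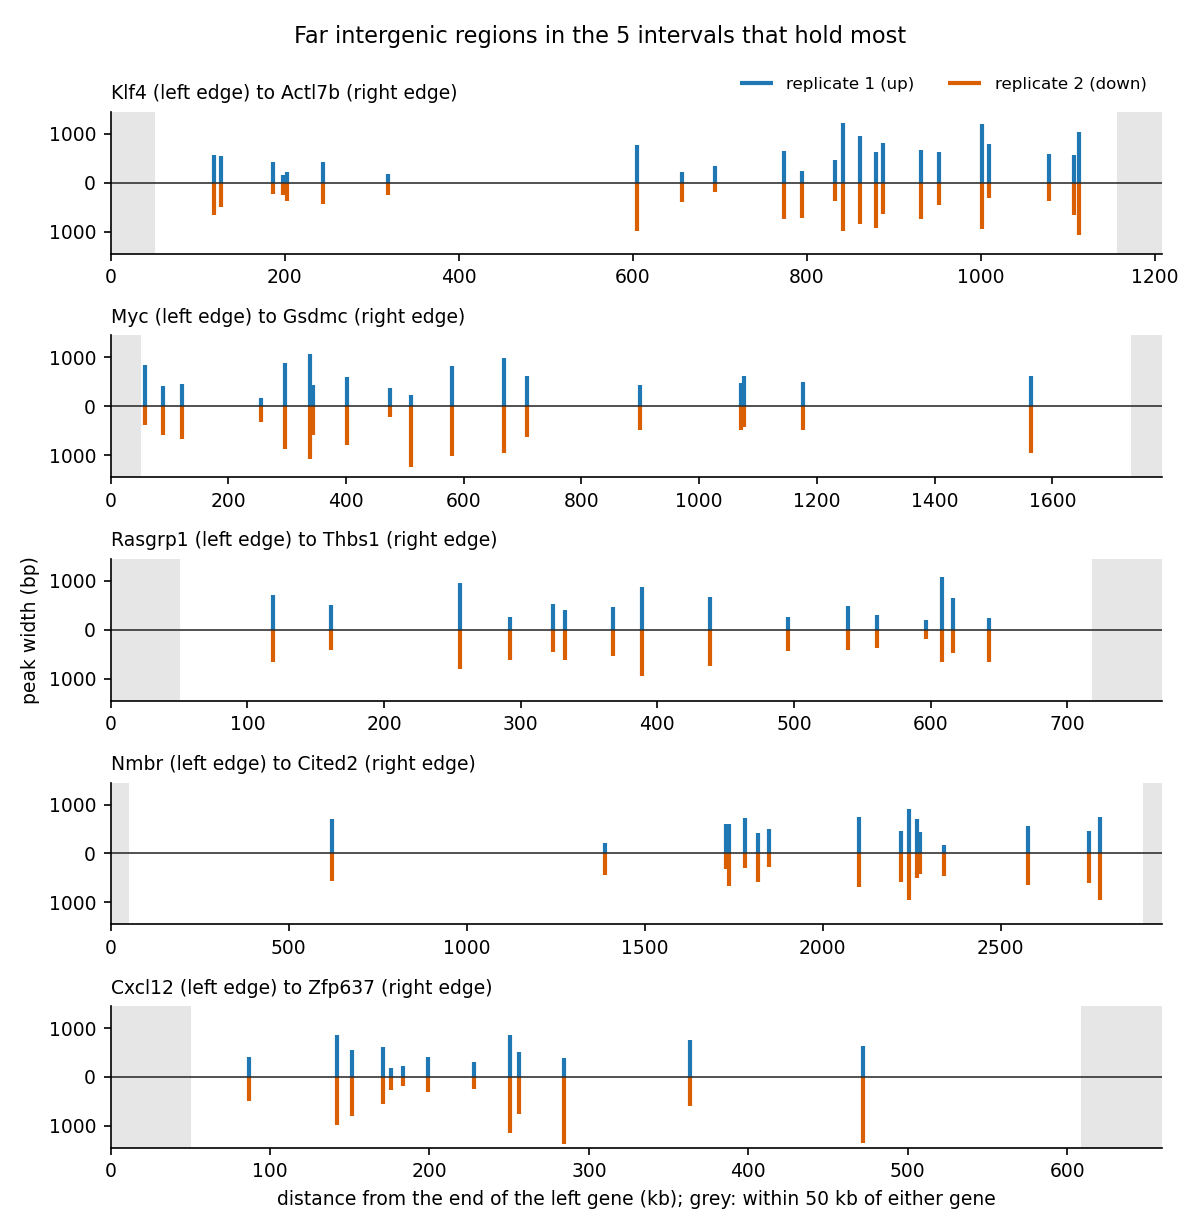
Far intergenic regions in the 5 intervals that hold the most members, placed by distance in kb from the end of the gene at the left edge (horizontal axis), with peak width in bp in replicate 1 drawn upwards and in replicate 2 downwards (vertical axis). Grey bands mark the 50 kb beside each protein-coding gene, and the Klf4 interval shows a cluster of wide members from about the middle to the Actl7b side.

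Of the intervals with 10 or more members, the most crowded was a short one. Between Hmga2 and Msrb3, 187 kb of far span held 10 members, 53.5 per Mb, with 12 far peaks in each replicate, among them the second widest region of all. Members there ran from 176 to 1523 bp in replicate 1 and from 201 to 1494 bp in replicate 2, and 7 of the 10 were nearer to Hmga2. This interval was picked after its values were seen.

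Many long deserts were empty. Of 222 intervals with at least 1 Mb of far span, 133 held no member, and the median of all 222 was 0 per Mb. The empty ones include chromosome starts with a coding gene on 1 side only, such as those before Olfr161 (3472 kb) and Hnf4g (3436 kb). How much of the empty span cannot be mapped was not tested. The longest of the empty ones lay between the protocadherin genes Pcdh20 and Pcdh9 on chromosome 14, with 4399 kb of far span and 1 peak in each replicate, at different places. Next came the intervals from Olfm4 to Pcdh17 (4274 kb, 1 peak in replicate 1 and 0 in replicate 2) and from Cntnap5b to Cdh20 (4121 kb, 0 peaks in both). A count of 0 allows up to 3 regions, by counting error alone, in an interval of that length. The desert between Cdh11 and Cdh5, by contrast, held 10 members in 1181 kb, of which 5 were nearer to Cdh11 and 5 to Cdh5. With both its sides counted, Cdh11 was nearest to 2128 kb of far span and 5 members. That made 2.35 per Mb, beside 2.40 for all genes.

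Neighbouring regions were farther off than for other classes by the median. By the share with a close neighbour this was clear against nearer intergenic regions and regions inside genes, but not against gene ends. The next shared region of any class was a median of 28990 bp away, against 16321 bp for nearer intergenic regions, and lay within 10 kb for 414 members (20.3%, 18.6 to 22.1) against 34.1% (32.5 to 35.8) of the nearer ones. The median was 20151.5 bp inside genes and 23350.5 bp at gene ends, and the shares within 10 kb were 28.3% (27.1 to 29.4) and 22.4% (21.5 to 23.4), the last close to that of members. For 342 members (16.8%) the next shared region lay over 100 kb away. That share was 6.6% for nearer intergenic regions, 7.8% inside genes and 9.0% at gene ends. Runs of 3 or more members with gaps of at most 10 kb numbered 24 and held 75 members (3.7%). The longest run had 5 members in 25.4 kb, 130.3 to 154.6 kb from Haao and in the same interval as the Gm35551 window printed above, between Haao and Zfp36l2. That interval held 9 members, with 10 far peaks in replicate 1 and 14 in replicate 2. A run of 4 members in 17.8 kb lay 91.5 to 108.5 kb from Sgk1, which encodes a kinase induced by serum and glucocorticoids.

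Noncoding genes, here all genes not annotated as protein-coding, held 459 members (22.5%, 20.8 to 24.4). Of these, 441 lay in lncRNA genes and 8 in pseudogenes, transcribed pseudogenes not counted. Transcribed pseudogenes with members include B230303A05Rik and Rnls, with 2 each. The class also takes in the long loci Tcra (2 members) and Igk (1 member), annotated as another type. Noncoding genes made up 12.2% of the far span, so there were 4.42 members per Mb inside them and 2.12 per Mb outside all genes. The spans inside and outside were not matched for distance from coding genes, with which density falls. Over 50 kb from every annotated gene, noncoding ones included, lay 498 members. After Gm13986, the lncRNA genes Gm15270 (between Moxd1 and Ccn2) and Gm31813 (between Agtr1b and Tbl1xr1) held the most, with 5 each. Upstream and downstream of the nearest coding gene the density was alike, at 2.37 and 2.32 per Mb, for the 3164 of 4109 genes whose strand the promoter table gives. Replicate 1 had 1348 far peaks upstream and 1145 downstream, and replicate 2 had 1348 and 1182.

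Members were next assigned to the nearest protein-coding gene. Of the 4109 genes that are nearest to some stretch of far span, 961 (23.4%) were nearest to at least 1 member, and 80 were nearest to 5 or more. The gene's own ends had a shared region within 1 kb at 24.1% (22.7 to 25.7) of the 3148 genes without a member. The same held at 32.2% (28.2 to 36.4) of the 494 genes with 1 member, at 39.3% (34.5 to 44.2) of the 387 with 2 to 4, and at 41.25% (31.1 to 52.2) of the 80 with 5 or more. Over all 20665 protein-coding genes the share was 33.2%, near that of genes with 1 member and inside the interval of those with 5 or more. The median far span also grew along these classes, from 53.3 to 97.6, 179.3 and 351.4 kb, and its part was not tested. Genes with the most members, beside those above, were Zfp608 with 14 (9 of them towards Gramd3), Med13l with 12, and Rnd3 and Reep3 with 9 each; these 4 were picked after their values were seen.

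The 17 gene lists were described by the number of members per Mb of far span nearest to their genes, beside 2.40 per Mb for all genes. Lists differ in how close to genes their span lies, so the density within 200 kb is given beside the first, which was 3.98 per Mb for all genes. Shares of a list's genes nearest to a member stand beside 23.4% for all genes with far span. Such a share can also depend on the far span per gene, with a median of 68.9 kb for all genes. The list medians ran from 14.3 kb (skeletal muscle) to 1712 kb (neural adhesion), with 173.8 kb for the matrix list. The part of span in these shares was not tested. Counts per replicate are of all far peaks. No list was tested, since the lists were drawn up with earlier results of these data known.

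Genes of early response had many members, carried by 3 genes. Of 10 genes of that list with far span, 6 (60.0%) were nearest to a member, and the 35 members made 11.4 per Mb (14.1 within 200 kb), or 11.3 without Myc. Klf4 and Klf6, which encode early-response Krüppel-like factors, were nearest to 8 each, and Jun, which encodes an AP-1 subunit, to 2, at 53.8 and 109.3 kb. Klf6 had 20 far peaks in replicate 1 and 12 in replicate 2, the largest gap between the lists among these genes. The list's far peaks numbered 60 in replicate 1 and 58 in replicate 2, 19.2 ± 0.46 per Mb (SD, n = 2).

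Matrix genes had 25 members at 7 of 9 genes (77.8%), 14.0 per Mb and 18.1 within 200 kb. Tnc, which encodes tenascin C, was nearest to 8 members, all upstream, 51.5 to 529.0 kb away in a desert shared with Pappa. Postn, which encodes periostin of the periosteum, was nearest to 6, all downstream and from 53.1 to 150.2 kb away. The widest of these, 89.2 kb from Postn (chromosome 3, 54479883 to 54480813), measured 714 and 931 bp. Col12a1, which encodes a fibril-associated collagen, was nearest to 4, and Col1a2 and Col5a2, both of fibrillar collagens, to 2 each. Those of Col1a2 lay 72.9 and 86.4 kb upstream, and their widths were between 612 and 757 bp in replicate 1 and between 925 and 933 bp in replicate 2. Those of Col5a2, at 102.1 and 123.3 kb, were wider still, from 968 to 1020 bp in replicate 1 and from 1133 to 1243 bp in replicate 2. Far peaks of the list numbered 33 in replicate 1 and 40 in replicate 2. The genes Col1a1, Bglap and Alpl had no far span of their own and could not be counted.

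Genes of osteocytes and osteoclast support had 17 members at 5 of 6 genes (83.3%), 20.2 per Mb (18.8 within 200 kb), or 15.3 without Cxcl12. Tnfsf11, which encodes the osteoclast factor RANKL and is known for enhancers far upstream, was nearest to 3 members that formed a run of 8.9 kb on chromosome 14. They lay 68.1, 75.6 and 76.3 kb upstream, and measured 352, 502 and 580 bp in replicate 1 and 649, 374 and 251 bp in replicate 2. The widths thus ran in opposite order in the 2 lists. Tnfrsf11b, which encodes the RANKL decoy osteoprotegerin, was nearest to 1 member, 129.9 kb away (368 and 585 bp).

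The actin cytoskeleton and YAP list had the highest density of the 17, 27.9 per Mb (27.3 within 200 kb), on a short span. Its 14 members lay in 0.50 Mb at 4 of 6 genes (66.7%), 9 of them at Thbs1, and without Thbs1 the density was 27.4. Ccn2, a YAP target that encodes connective tissue growth factor, was nearest to 2, at 102.0 and 140.5 kb, and Tpm1, which encodes tropomyosin, to 2, at 56.3 and 81.3 kb. Replicate 1 had 23 far peaks in this list's span and replicate 2 had 19.

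Signalling genes had densities between those of the 4 lists above and that of all genes. The Wnt list had 20 members at 9 of 17 genes (8.31 per Mb, 8.11 within 200 kb). Tcf7l2, which encodes the nuclear effector that binds beta-catenin, was nearest to 4 downstream members, and the widest of them, 58.9 kb away, measured 1083 and 794 bp. Fzd1, a Wnt receptor gene, was also nearest to 4, the widest of them 223.2 kb away (1215 and 1164 bp), and the receptor gene Fzd8 to 3, from 103.6 to 568.0 kb away. Lef1, a partner of beta-catenin, had 2 upstream members, the larger reaching 1263 bp in replicate 1 and 1045 bp in replicate 2. The BMP and TGF-beta list had 27 at 10 of 19 genes (4.83 per Mb, 7.69 within 200 kb), among them 5 at the activin gene Inhba, 4 at the bone morphogenetic protein gene Bmp4 and 3 at the joint factor gene Gdf6. The receptor gene Tgfbr2 and Smad3, which encodes a nuclear effector of TGF-beta, had 3 each, all upstream, and Tgfb2 had 3, all downstream. The FGF, hedgehog and PTH list had 14 at 7 of 14 genes (5.04 per Mb, 5.996 within 200 kb), with 4 downstream of Dusp6, which encodes a phosphatase that restrains ERK, at 129.3 to 174.7 kb, and 2 each at Ptch1 and Fgf9.

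Transcription factor genes of the osteoblast had 14 members at 8 of 19 genes (42.1%), where 23.4% of all genes had one. Their density of shared regions was 2.88 per Mb, and 3.91 within 200 kb where all genes had 3.98. Counting all far peaks, with 35 in replicate 1 and 33 in replicate 2, it was 6.99 ± 0.29 per Mb (SD, n = 2) against 4.05 ± 0.07 for all genes, so the measures differ in where they place this list. Nfib had 3 members, and Dlx6 and Ebf1 had 2 each, the nearer one of Dlx6, at 61.2 kb, measuring 1065 and 1179 bp. Runx2 itself had 57.9 kb of far span, with 1 far peak in each replicate and no shared region there. Developmental transcription factors chosen for their gene deserts had 63 members at 22 of 45 genes (48.9%). At 3.38 per Mb they lay above all genes (2.40), and within 200 kb, at 3.48 against 3.98, below them. Osr1, a mesenchymal regulator of limb and kidney, was nearest to 8, Nr2f2, an orphan nuclear receptor gene, to 7, and the basic leucine zipper gene Maf to 6. The widest Osr1 member measured 1395 bp in replicate 1 and 1199 bp in replicate 2.

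The chondrocyte list had 8 members at 3 of 7 genes. At 3.90 per Mb it lay above all genes, and within 200 kb, at 3.50 against 3.98, below them. Of these, 4 belonged to Sox9, the master regulator of cartilage, at 138.6 to 324.8 kb, 3 to Sox5 and 1 to Hapln1. The fibroblast and mesenchymal list had 16 at 6 of 10 genes. At 2.56 per Mb it lay near all genes, and within 200 kb, at 5.57 against 3.98, above them, with 6 at Zeb2, 5 at Cdh11 and 2 at Thy1, a surface marker of fibroblasts. The adipocyte list had 1, 74.9 kb from Cebpb (563 and 585 bp), which on 0.11 Mb of span made 9.28 per Mb.

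Genes of neural adhesion had few members over a large span. Their 29 genes were nearest to 48.7 Mb of far span, more than any other list, and 4 of them (13.8%) were nearest to 8 members, 0.16 per Mb. Within 200 kb of these genes 7.75 Mb of span held 0 members. Replicate 1 had 18 far peaks there and replicate 2 had 17, 0.36 ± 0.01 per Mb (SD, n = 2), against 4.05 ± 0.07 for all far span. Pcdh18, a protocadherin gene, was nearest to 4 members and Pcdh7 to 2. The member 1031 kb from Lrrc4c, at 98662533 on chromosome 2, was narrow (198 and 293 bp), with peaks that began at the same base in both lists. No list of artefact-prone stretches was applied, and whether this region is an artefact was not tested. Neuron genes had 3 members at 2 of 10 genes (0.94 per Mb, 0.70 within 200 kb), 2 at Stmn2 and 1 at Grin2a. The liver list had 1, near Apob (0.62 per Mb, 3.02 within 200 kb), the blood cell list had 0 on 0.64 Mb of span, and the muscle list had 0 on 0.014 Mb, too short to show any.

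**Figure D5:**
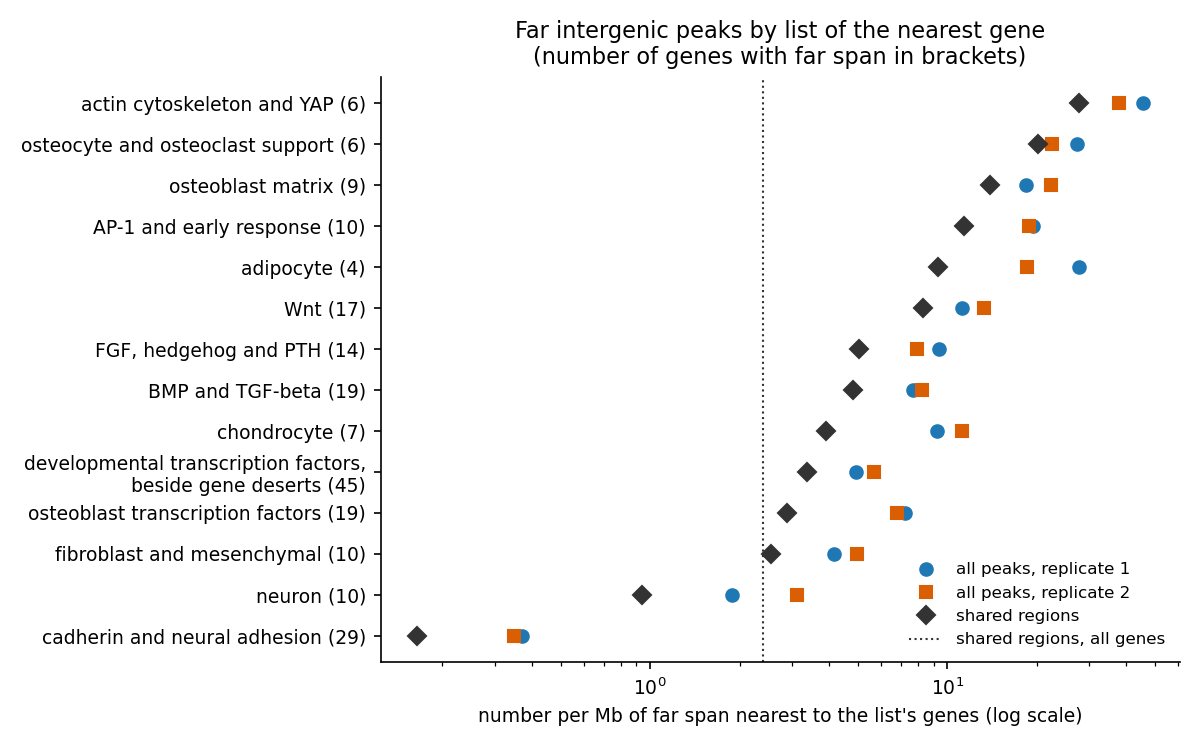
Far intergenic peaks per Mb of far span nearest to the genes of a list (horizontal axis, log scale) for the lists with at least 4 such genes, with all peaks of replicate 1 (circles), all peaks of replicate 2 (squares) and shared regions (diamonds), and a dotted line at the 2.40 shared regions per Mb of all genes. The neural adhesion list lies far below the line at 0.16, the shared regions of the osteoblast transcription factors lie near it at 2.88, and the cytoskeleton and YAP list lies farthest above it at 27.9.

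Chromosomes differed less than deserts did. The number of members per Mb of far span ran from 1.49 on chromosome 14 to 4.20 on chromosome 10, where 182 members lay. As a share of shared regions, members made up 20.3% on chromosome 13 and 5.49% on chromosomes 7 and 19.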

How the data were processed

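Peak positions of 2 RUNX2 CUT&Tag libraries of MC3T3-E1 cells were used as the authors deposited them, in bp, 1 list per replicate. The submitters' processing notes list fastp 0.19.6, Bowtie2 and deepTools and the build GRCm38 (mm10), without saying what each did. How peaks were called, and against what, is not given in the sources used here. Each list has 5 columns and no score. No list of artefact-prone stretches was applied. Peaks were merged, placed and counted in Python 3.11.15 with pandas 2.3.3. Shares were compared by two-sided Fisher's exact tests in scipy 1.17.1 with Benjamini-Hochberg adjustment (threshold 0.05), with Wilson and Newcombe intervals at the 95% level from statsmodels 0.14.6, which cover counting error only. Overlaps were checked against bedtools 2.31.1, and placement was tested on simulated data. Gene spans and promoter sequences are RefSeq's (GRCm38.p6). The members and lists were chosen with earlier results of these data known.

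The genes named were the flanking genes of the 12 widest and the 5 farthest members and of the 5 intervals with most members, and up to 3 genes per list with most members. Others are named as examples beside a count. The effects of 8 other settings are in the closing section.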

Additional observations from a re-analysis of the deposited data

Results flagged for a closer look

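Chromosome X, which the rule leaves out, held 21 regions that met it otherwise, of 289 shared regions there (7.27%, 95% Wilson interval 4.80 to 10.9). On chromosomes 1 to 19 the share was 11.4% (11.0 to 11.9). Their median width was 400 bp in replicate 1 and 474 bp in replicate 2.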

How the results depend on the processing

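The differences in the share found in both replicates kept their direction and passed the threshold under all 6 other settings run in each list (-7.49 to -12.7 points in replicate 1 and -8.35 to -12.8 in replicate 2), and that in wide regions under all 5 (-3.75 to -7.50, against -6.29 as reported). The smallest of these, -3.75 (exact p = 0.0058), came from a reciprocal overlap of 50%. For the share in replicate 2, the setting that takes positions from replicate 2 repeats the reported analysis and could not differ. Compared with positions inside coding genes only, chosen after the data were seen, the replicate 2 difference was -1.69 points and no longer passed. For wide regions that difference was -0.69, and against positions between genes only it was -1.05, and neither passed. The number of members was 2037. With a single replicate, where no overlap is needed, far peaks numbered 3392 to 3480, at 4.00 to 4.10 per Mb and 0.398 to 0.402 times the density nearer to genes, against 0.383 for members. A reciprocal overlap of 50% gave 1.68 per Mb and a ratio of 0.358. Peaks wider than the list median gave 939 regions, 1.11 per Mb, a ratio of 0.374 and 578 nearest genes. A limit of 25 kb gave 2.94 per Mb, a ratio of 0.458 and 1465 genes. A limit of 100 kb gave 1243 regions, 1.85 per Mb, a ratio of 0.317 and 576 genes. With 50 kb from every annotated gene there were 498 regions, 1.28 per Mb, a ratio of 0.262 and 297 genes. No paired analysis was possible because there is 1 group. Widths carry no signal height, and read depth is unknown.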
